A study of Mus musculus with 9 samples.

Results

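The nuclear genes of the mitochondrial respiratory chain were examined in NR4A2 chromatin immunoprecipitation sequencing (ChIP-seq) data from mouse heart ventricle. The members were those protein-coding genes in RefSeq (GRCm38) whose symbols begin Ndufa, Ndufb, Ndufc, Ndufs, Ndufv, Sdh, Uqcr, Cox4 to Cox8 or Atp5, with Cycs and Cyc1 added, 102 genes in all. A region of the deposited table was assigned to a member when it touched the gene's span extended by 10 kb on each side. By this rule 89 of the 102 members had at least 1 region, and 225 of the 16884 regions in the table belonged to a member. The rule used symbols and positions and no measured value.

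The series holds 9 samples, of which 6 ChIP libraries from single mice were used. In 3 of them, here called NR4A2 hearts, the mice were Nr4a2-icTg animals: an Nr4a2 cassette knocked into ROSA26 is switched on in heart muscle cells by a tamoxifen-dependent Cre recombinase driven by the Myh6 (αMHC) promoter. The other 3, the Control hearts, came from αMHC-MerCreMer littermates with the recombinase and no stated cassette. Both groups received tamoxifen, 40 mg/kg in 1 intraperitoneal dose at 8 to 9 weeks of age, and carry the label day 3. The antibody, clone 9D12, was used at 5.5 µg on 30 µg of chromatin, and fly chromatin (200 ng) was added along with 0.4 µg of an antibody to its histone H2Av. The antibody test ChIP, its input and the pooled input (3 samples) were not analysed here. Signal in Control hearts therefore has no input beside it, and binding of NR4A2 present without the cassette cannot be told apart from other capture by the antibody.

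NR4A2 is an orphan nuclear receptor that can bind DNA as a monomer at a site called NBRE, and related receptors of the estrogen-related group bind a closely similar site. The respiratory chain passes electrons from NADH (complex I) and succinate (complex II) through complex III and cytochrome c to oxygen at complex IV, and ATP synthase uses the resulting proton gradient to make ATP. Heart muscle is densely packed with mitochondria. The promoters of the nuclear subunit genes are known for sites of NRF1, of the ETS factor GABP (NRF2) and of YY1, and for control by PGC-1 coactivators and estrogen-related receptors.

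Sequences of 8 start windows are shown because the results turn on the regions over them. They cover 250 bases before and 50 after an annotated start and come from RefSeq (GRCm38.p6). Each is written 5′ to 3′ on the gene's strand, with matches to 1 of 7 motifs, spelled out below, in capitals. Atp5h carried the region that fell at a start. Atp5j, which shares its region with Gabpa, and Cycs had among the strongest start regions. Cox6a1 and Cox7a1 are the ubiquitous and the heart forms of different subunits of complex IV. Sdhd and Atp5g3 hold the ERRE match, and Rpl3l is the neighbour whose start lies under the region gained near Ndufb10.
Atp5h, chr11:115419870-115420169, minus strand: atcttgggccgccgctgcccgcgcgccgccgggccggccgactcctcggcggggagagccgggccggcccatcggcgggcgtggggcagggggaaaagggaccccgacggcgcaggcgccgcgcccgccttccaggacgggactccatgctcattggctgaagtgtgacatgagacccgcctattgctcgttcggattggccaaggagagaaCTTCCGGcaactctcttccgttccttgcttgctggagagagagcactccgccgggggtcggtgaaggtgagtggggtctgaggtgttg
Atp5j, chr16:84834927-84835226, minus strand: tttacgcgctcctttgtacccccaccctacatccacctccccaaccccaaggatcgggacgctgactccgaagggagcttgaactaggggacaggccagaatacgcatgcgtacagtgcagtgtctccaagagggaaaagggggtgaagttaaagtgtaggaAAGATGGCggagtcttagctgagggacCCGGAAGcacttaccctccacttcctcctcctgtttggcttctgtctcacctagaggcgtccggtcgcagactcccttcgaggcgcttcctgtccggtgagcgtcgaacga
Cycs, chr6:50566520-50566819, minus strand: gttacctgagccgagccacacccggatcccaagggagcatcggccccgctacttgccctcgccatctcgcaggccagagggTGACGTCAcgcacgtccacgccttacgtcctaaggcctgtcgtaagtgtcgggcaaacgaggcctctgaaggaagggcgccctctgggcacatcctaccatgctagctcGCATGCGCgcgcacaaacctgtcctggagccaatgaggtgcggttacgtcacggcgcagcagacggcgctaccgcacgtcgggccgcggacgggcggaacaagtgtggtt
Cox6a1, chr5:115348909-115349208, minus strand: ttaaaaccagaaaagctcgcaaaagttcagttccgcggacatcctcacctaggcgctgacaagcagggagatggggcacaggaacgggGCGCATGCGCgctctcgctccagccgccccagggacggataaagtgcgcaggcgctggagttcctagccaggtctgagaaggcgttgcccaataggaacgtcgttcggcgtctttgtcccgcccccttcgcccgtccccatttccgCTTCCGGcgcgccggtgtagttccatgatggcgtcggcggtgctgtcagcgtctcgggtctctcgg
Sdhd, chr9:50603800-50604099, minus strand: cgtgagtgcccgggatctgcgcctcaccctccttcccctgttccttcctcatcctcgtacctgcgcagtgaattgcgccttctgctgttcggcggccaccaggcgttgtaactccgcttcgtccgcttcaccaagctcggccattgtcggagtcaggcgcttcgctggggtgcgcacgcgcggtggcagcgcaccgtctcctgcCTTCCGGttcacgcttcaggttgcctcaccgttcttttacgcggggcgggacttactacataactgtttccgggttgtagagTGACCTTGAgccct
Atp5g3, chr2:73911277-73911576, minus strand: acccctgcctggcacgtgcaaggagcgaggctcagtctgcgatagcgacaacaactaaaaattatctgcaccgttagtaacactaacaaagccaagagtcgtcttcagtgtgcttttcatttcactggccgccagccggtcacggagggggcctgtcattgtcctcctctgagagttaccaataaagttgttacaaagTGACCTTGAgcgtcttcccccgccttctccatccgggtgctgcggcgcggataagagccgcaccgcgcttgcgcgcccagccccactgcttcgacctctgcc
Cox7a1, chr7:30183921-30184220, plus strand: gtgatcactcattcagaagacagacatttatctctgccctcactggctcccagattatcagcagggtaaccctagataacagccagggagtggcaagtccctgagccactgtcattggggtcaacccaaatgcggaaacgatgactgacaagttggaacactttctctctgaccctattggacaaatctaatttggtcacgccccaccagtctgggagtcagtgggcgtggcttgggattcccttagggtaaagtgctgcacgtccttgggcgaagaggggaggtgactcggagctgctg
Rpl3l, chr17:24732435-24732734, plus strand: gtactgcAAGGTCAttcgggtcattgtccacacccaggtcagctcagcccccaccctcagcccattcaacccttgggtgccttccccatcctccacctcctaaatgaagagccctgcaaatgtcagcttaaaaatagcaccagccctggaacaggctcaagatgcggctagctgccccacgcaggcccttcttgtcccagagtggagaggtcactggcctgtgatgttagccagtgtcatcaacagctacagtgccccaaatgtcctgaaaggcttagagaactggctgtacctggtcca

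The capitals mark CCGGAAG (ETS) 38 bases before the start of Atp5h, 61 before that of Atp5j, 16 before that of Cox6a1 and 46 before that of Sdhd, read on either strand. They mark AAGATGGC (YY1) 88 bases before the start of Atp5j. GCGCATGC (NRF1) lies 60 bases before the start of Cycs, and in overlapping matches on both strands 160 and 162 bases before that of Cox6a1. Cycs also holds TGACGTCA (CRE) 169 bases before its start. TCAAGGTCA (ERRE) lies on the other strand, 52 bases before the start of Atp5g3 and 36 bases after that of Sdhd. The Rpl3l window holds only the shared core AAGGTCA, 243 bases before the start, and the Cox7a1 window holds none of the searched letters.

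Motif counts over all members used the 88 start windows in the RefSeq table that belong to 83 members, beside the 21263 windows of all genes, each 300 bases long and searched on both strands. The NRF1 motif GCGCATGC was in 13 member windows (14.8%) and in 3.52% of all windows. The ETS motif CCGGAAG was in 22 (25%) beside 11.6%, and the YY1 motif AAGATGGC in 11 (12.5%) beside 3.05%. TGACGTCA (CRE) was in 5 (5.68%) beside 2.23%. The letters AAAGGTCA of the NBRE were in 0 member windows and in 277 of all windows (1.30%). TCAAGGTCA (ERRE) was in 2 member windows (2.27%), those of Atp5g3 and Sdhd, and in 0.334% of all. The core AAGGTCA, which both NBRE and ERRE contain and which was added after the data were seen, was in 8 (9.09%) beside 4.08%. Among the 77 member windows that lay over a region, the shares were 14.3% for NRF1 and 24.7% for ETS. Among the 7460 windows of all genes over a region they were 6.61% and 22.4%. In the same order of sets, the shares were 12.99% and 5.86% for YY1 and 6.49% and 3.98% for CRE. For the core AAGGTCA they were 10.4% (8 member windows) and 2.96%. For ERRE they were 2.60% (2 member windows) and 0.241%, and for NBRE 0% and 0.952%. A match describes letters only and is not a measured site.

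Depth and scale bear on every value. The values are CPM, counts scaled to a common size within each library, so they do not show a change that touches every region alike. Reads in regions numbered 549700 to 1027394 in Control hearts and 637635 to 1035856 in NR4A2 hearts, and 1 read was worth 0.955 to 1.81 CPM. The targeted gene went with the labels at chr2:57111638-57112257 in Nr4a2. CPM there were 6.15, 7.79 and 25.3 in Control hearts and 115, 82.0 and 74.4 in NR4A2 hearts. Reads from the knock-in copy and from the gene itself were not separated there. Within 10 kb of the gene, chr2:57108341-57108700 was also higher (log2 fold change 1.46, limma adjusted p = 0.0340). Not called were chr2:57116606-57117270 (-0.09, adjusted p = 0.837) and chr2:57123820-57124137 (-1.12, adjusted p = 0.0736). All 8 cardiomyocyte markers had a region, as had 4 of 5 endothelial, 3 of 5 fibroblast, 2 of 5 smooth muscle and pericyte and 1 of 5 immune markers. Of 214 regions of the cardiomyocyte markers 18 (8.41%) were higher and 2 (0.935%) lower in NR4A2 hearts, with a median log2 fold change of 0.31. Of 13 regions of the endothelial markers 0 were higher and 2 (15.4%) lower (-0.40). Among all regions 14.7% were higher and 3.17% lower. By gene, 6 of the 8 cardiomyocyte markers (75%) had a higher region and 1 (12.5%) a lower one. Of the 4 endothelial markers with a region, 0 had a higher and 2 (50%) a lower one. Among all genes with a region, 14.2% had a higher and 6.25% a lower one. The 8 cardiomyocyte markers held 214 regions, while all genes with a region had a median of 1. None of the 8 regions of the other markers was called, with medians of -0.07 for fibroblast, 0.40 for smooth muscle and pericyte and -0.27 for immune markers. Their part in the results was not tested. In whole ventricle, fewer bound cells and less binding per cell cannot be told apart.

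The starts of respiratory chain genes carried NR4A2 ChIP signal in both groups. Of the 83 members with an annotated start, 72 (86.7%) had a region within 1 kb of it, beside 6905 of all 17492 genes with an annotated start (39.5%). That larger set was not limited to genes active in heart, and a comparison with active genes only was not made. With the 19 members whose start is not annotated placed by their gene ends, 87 of 102 (85.3%) had such a region. The strongest of these at each gene is called the start region here. It covered the start, or a gene end where no start is annotated, at 85 of the 87. The start regions of all genes, given below for comparison, were placed by annotated starts only. Ndufaf2 and Cox6b1 had regions only elsewhere. No region was assigned to Ndufa1, Ndufa6, Ndufb4b, Ndufb4c, Ndufaf1, Ndufaf5, Ndufaf6, Ndufaf8, Cox4i2, Cox6b2, Cox7b2, Cox8c or Atp5g1, 13 genes that include the testis forms Cox6b2, Cox7b2 and Cox8c and the lung form Cox4i2.

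Start regions of members had a median of 91.1 CPM in the Control and 84.1 CPM in the NR4A2 group, beside 65.6 and 57.9 CPM for the 6229 start regions of all genes. Their median length was 639 bp beside 553 bp. Per kb of region, the medians were 140 and 130.3 CPM per kb for members and 121 and 105 CPM per kb for all genes. Of the 87, 25 (28.7%) were among the top 10% of all regions by mean CPM, and 84 had at least the median signal. Weaker ones were at Ndufa4l2 (14.4 CPM in Control and 18.2 in NR4A2 hearts) and Sdhaf3 (33.5 and 31.5 CPM).

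**Figure D1:**
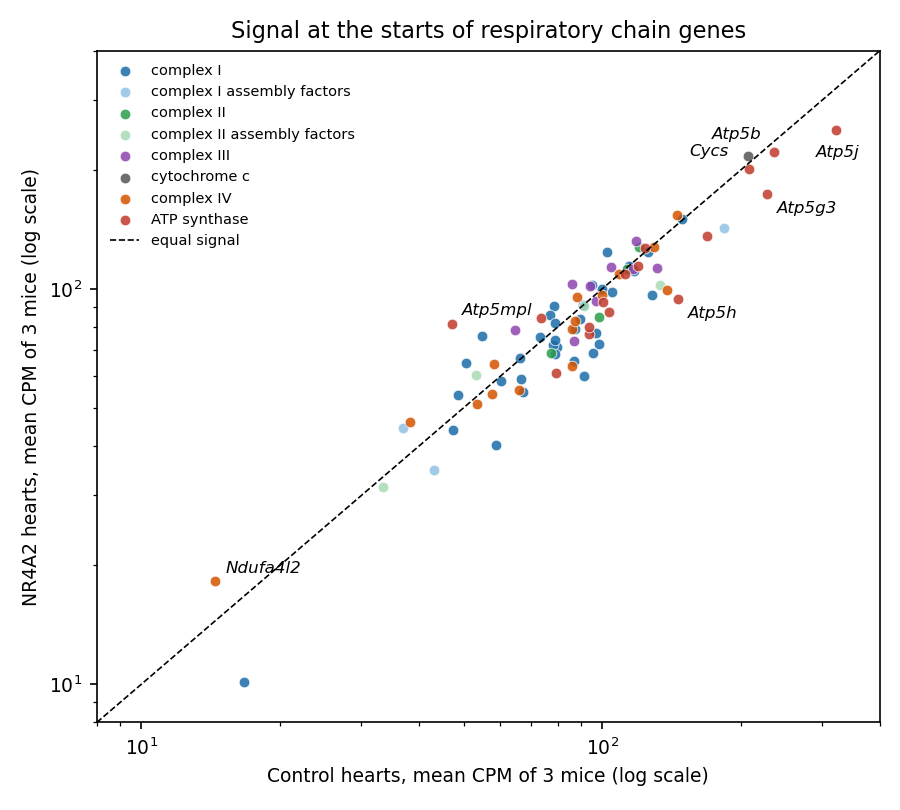
Each point is the start region of 1 respiratory chain gene (87 genes), with the mean CPM of 3 Control hearts on the x axis and of 3 NR4A2 hearts on the y axis, both on log scales, coloured by complex, and the dashed line marks equal signal. Most points lie close to the line, Ndufa4l2 at 14.4 and 18.2 CPM and Atp5j at 322 and 253 CPM among them, with Atp5mpl above the line and Atp5h below it. Ndufa4 and Ndufa4l2 are grouped with complex IV.

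Few of these start regions differed between the groups by the test. By limma on log2(CPM + 1), with adjusted p under 0.05 over all regions as the threshold, 1 start region was higher in NR4A2 hearts, at Atp5mpl (1.15%), and 1 was lower, at Atp5h (1.15%). Among the start regions of all genes, all placed by annotated starts, 1.35% were higher and 4.38% lower. Atp5mpl has no annotated start and was placed by its gene ends. Among all 16884 regions 14.7% were higher and 3.17% lower, 2475 and 536 regions, or 2881 and 132 with each library centred on regions within 1 kb of gene ends. The median log2 fold change was -0.06 for the 87 members and -0.19 for the start regions of all genes, with a member range of -0.62 to 0.77. Over the 72 members with an annotated start, the median was -0.08 and the range -0.62 to 0.47. At 56 of the 87 the value was below 0, and at 82 (94.3%) it lay between -0.5 and 0.5, beside 81.7% of all start regions. The 95% interval of the log2 fold change lay wholly between -1 and 1 at 80 of the 87, wholly between -0.5 and 0.5 at 23, and at 84 it excluded a rise of 1. Centring moved the median of all regions by 0.17 and turned that of the 87 members to 0.11, with 29 below 0, and Atp5h was then not called (adjusted p = 0.0928). Smaller changes at most of these starts were not detectable with 3 hearts a group.

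The groups did not overlap at 12 start regions. NR4A2 hearts were all above Control hearts at Ndufb3, Ndufb6 and Atp5mpl (3.45%, beside 3.60% of all start regions). They were all below at Atp5g3, Atp5j2, Atp5h, Atp5j, Ndufab1, Ndufa7, Ndufb8, Ndufaf3 and Cox4i1 (10.3%, beside 17.0%). At Ndufb6, an accessory subunit of complex I, CPM were 78.9, 77.9 and 74.2 in Control hearts and 88.8, 89.8 and 79.5 in NR4A2 hearts, a log2 fold change of 0.16 ± 0.22 (SE). Here and below, the 3 values of a group are mice 1, 2 and 3, n = 3 in each group, and means carry ± SD.

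By complex, the median log2 fold change of start regions was -0.05 for 35 complex I genes, -0.09 for 4 complex II genes, 0.09 for 9 complex III genes, -0.06 for 15 complex IV genes and -0.18 for 16 ATP synthase genes. It was -0.31 for 3 complex I assembly factors and -0.04 for 4 complex II assembly factors. At Cycs, cytochrome c, it was 0.08. Ndufa4 and Ndufa4l2 were counted with complex IV, not with complex I. No start region of complexes I, II, III or IV passed the test in either direction. At the complex III genes all 9 values lay between -0.22 (Uqcrc1, a core protein) and 0.28 (Cyc1, cytochrome c1, which hands electrons to cytochrome c). At Cyc1, CPM were 68.6, 76.9 and 48.9 in Control hearts and 78.3, 94.6 and 63.1 in NR4A2 hearts, groups that overlapped (adjusted p = 0.481). At complex II, the start region of Sdha, the flavoprotein subunit, had 113 ± 21.3 CPM in the Control and 112 ± 26.2 CPM in the NR4A2 group.

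**Figure D2:**
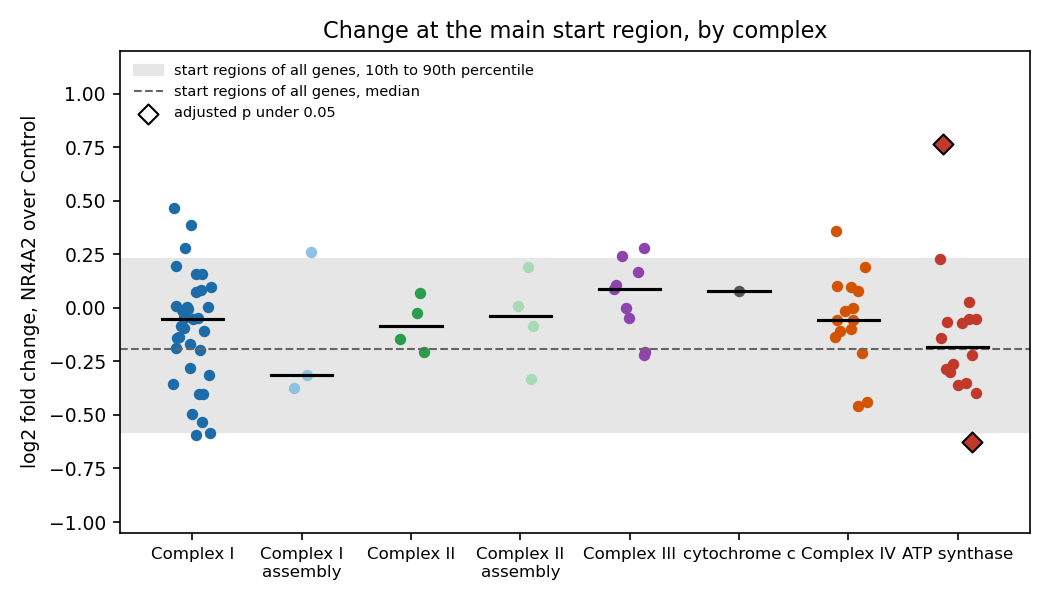
Each point is the log2 fold change (NR4A2 over Control, on log2(CPM + 1)) of the start region of 1 gene, grouped by complex on the x axis, with a black bar at each group's median and diamonds for adjusted p under 0.05. Only Atp5mpl (0.77) and Atp5h (-0.62), both of ATP synthase, are diamonds, and most points lie inside the grey band that holds the middle of the start regions of all genes (from -0.58 to 0.23, median -0.19).

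Among the complex I genes, the start region of Ndufab1, the mitochondrial acyl carrier protein, had the largest change of those with at least median signal. CPM were 82.0, 82.7 and 109 in Control hearts and 54.4, 67.8 and 58.0 in NR4A2 hearts. Every NR4A2 heart was below every Control heart, with a log2 fold change of -0.59 ± 0.23 (SE) and an adjusted p of 0.0692, which missed the threshold. At the start of Ndufs8, a core iron-sulfur subunit, means were 149 ± 16.2 and 150.3 ± 25.1 CPM (log2 fold change 0.01). At Ndufaf3, an assembly factor of complex I, CPM were 166, 189 and 197 in Control hearts and 149.9, 117 and 161 in NR4A2 hearts (log2 fold change -0.37 ± 0.18, adjusted p = 0.150). At Sdhaf2, the assembly factor that attaches flavin to Sdha, the value was -0.33 ± 0.20 with overlapping groups.

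The 10 start regions with the highest mean CPM were at Atp5j, Atp5b, Cycs, Atp5a1, Atp5g3, Ndufaf3, Atp5g2, Cox5a, Ndufs8 and Ndufa4, and none of them passed the test. Of these, 5 belong to ATP synthase. The region at Atp5j, a subunit of the peripheral stalk, spans 2474 bp (chr16:84833864-84836337) and also holds the start of Gabpa, the DNA-binding subunit of GABP, 148 bp away on the opposite strand. There CPM were 333, 316 and 317 in Control hearts and 246, 214 and 298 in NR4A2 hearts. Every NR4A2 heart was lower, with a log2 fold change of -0.36 ± 0.16 and an adjusted p of 0.112. At Cycs (chr6:50566089-50567202) CPM were 176, 236 and 208 in Control hearts and 223, 205 and 223 in NR4A2 hearts, so that the groups overlapped (0.08 ± 0.17, adjusted p = 0.801). At Atp5b, the catalytic beta subunit, means were 236 ± 45.0 and 222 ± 11.8 CPM, and at Atp5a1, the alpha subunit, 208 ± 25.8 and 200.5 ± 21.8 CPM. Per kb, the order changed: in Control hearts Atp5a1 had 203, Cycs 185 and Atp5j 130.2 CPM per kb, and the highest start region was that of Uqcrc1 with 243 CPM per kb.

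The ring of subunit c in the membrane part of ATP synthase is encoded by 3 genes for the same mature protein. Atp5g1 had no region. At Atp5g3 CPM were 221, 216 and 244 in Control hearts and 188, 147 and 185 in NR4A2 hearts, with no overlap (log2 fold change -0.40 ± 0.17, adjusted p = 0.101). At Atp5g2 they were 141, 162 and 203 against 128, 129 and 150.1, with overlap (-0.30 ± 0.18, adjusted p = 0.290).

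The heart and ubiquitous forms of complex IV subunits both carried start signal, and none of them passed the test. Per kb of region, Cox7a1 (heart and muscle form) and Cox7a2 (ubiquitous) had 136 and 136 CPM per kb in Control hearts and 136 and 129 in NR4A2 hearts. At Cox7a1 (chr7:30183930-30184729) CPM were 118, 109 and 99.6 in Control hearts and 118, 99.3 and 108 in NR4A2 hearts, means of 109 ± 9.14 and 109 ± 9.55 CPM, and the log2 fold change was 0.00 with a 95% interval from -0.40 to 0.40. Cox6a2 (heart) had 85.7 and 95 CPM per kb in Control and NR4A2 hearts, and Cox6a1 (ubiquitous) had 154 and 166, each with a log2 fold change of 0.10. Cox8b (heart) had 93.4 and 112 CPM per kb, and Cox8a (ubiquitous) had 190.4 and 141. Their log2 fold changes were 0.36 ± 0.32 and -0.44 ± 0.23, with overlapping groups at both. Cox4i1, the form of subunit 4 used in heart, had CPM of 124, 128 and 161 in Control hearts and 102, 96.2 and 99.6 in NR4A2 hearts. These did not overlap, and the log2 fold change of -0.46 ± 0.20 did not pass the test (adjusted p = 0.0958). The only region assigned to Cox6b1 lay 1366 bp outside the gene (32.0 CPM in Control and 19.4 CPM in NR4A2 hearts, adjusted p = 0.271).

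Taking all 225 member regions, 10 were higher in NR4A2 hearts (4.44%, beside 14.7% of all regions) and 3 were lower (1.33%, beside 3.17%). The 13 called regions lay at 13 different genes: 5 of complex I or its assembly, 3 of complex II or its assembly and 5 of ATP synthase. No region of complex III, complex IV or cytochrome c genes was called. NR4A2 hearts were all above Control hearts at 16 member regions (7.11%, beside 19.9%) and all below at 21 (9.33%, beside 11.7%). Per gene, 10 of the 89 members with a region (11.2%) had a higher region, beside 1582 of 11154 genes (14.2%), and 3 (3.37%) had a lower one, beside 697 (6.25%). Members had a median of 2 regions and all genes a median of 1. In the authors' deposited table, 9 of the 225 are called up and 1 down, beside 14.9% and 1.95% of all regions there. Without NR4A2 mouse 3, 3 member regions were higher and 1 lower, and without Control mouse 1, 1 was lower. With centring 13 were higher and 0 lower.

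**Figure D3:**
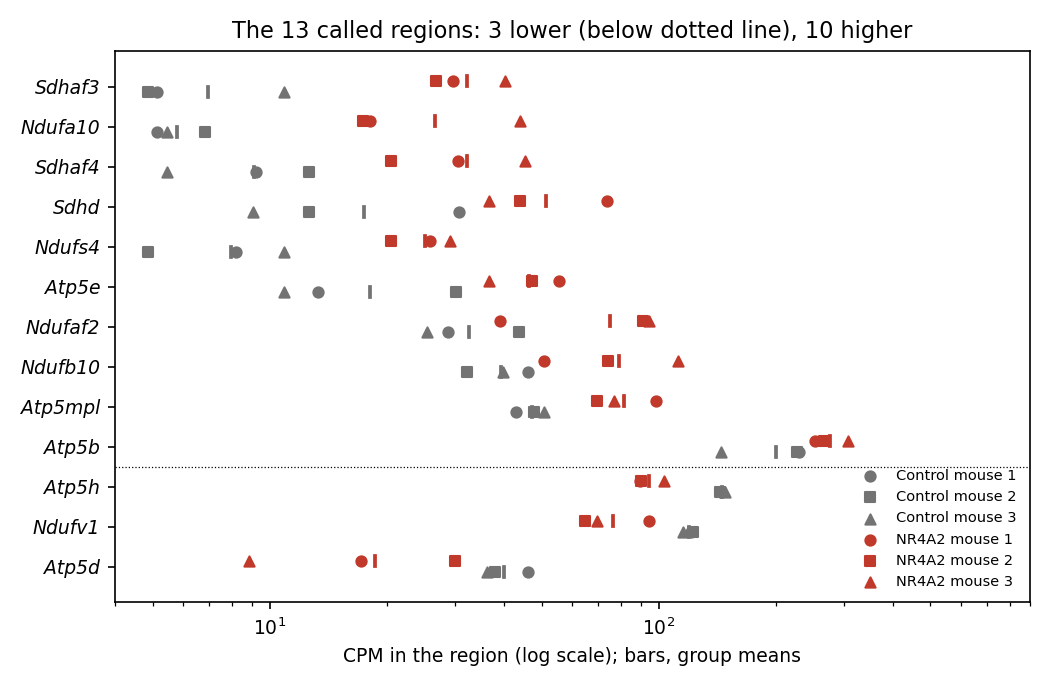
CPM of each of 3 Control hearts (grey) and 3 NR4A2 hearts (red) in the 13 called regions, 1 row per gene, on a log scale, with vertical bars at the group means and the 3 lower regions under the dotted line. Groups overlap only at Ndufaf2. The lowest Control mean is at Ndufa10 (5.79 CPM, and 26.5 CPM in NR4A2 hearts) and the highest at Atp5b (200.4 and 276 CPM).

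The called member regions were also read by position. Of the 101 member regions within 1 kb of a member's start, or of a gene end where no start is annotated, 1 rose (0.990%) and 1 fell (0.990%). Of the 124 farther away, 9 rose (7.26%) and 2 fell (1.61%). Those inside the member gene (38 regions) had a median log2 fold change of 0.34, with 5 that rose (13.2%) and 0 that fell. Those outside it (86 regions) had a median of -0.19, with 4 that rose (4.65%) and 2 that fell (2.33%). All regions were not split in this way, and among them 14.7% were higher and 3.17% lower. Over the table as a whole, 2.31% of regions within 1 kb of any gene end and 26.1% of those farther away were higher, and 4.02% and 2.39% were lower. By that same distance to any gene end, 6 of 153 member regions (3.92%) and 4 of 72 (5.56%) were higher, shares closer together than those of all regions, and 2 and 1 were lower. No test of these differences was run. Gene ends here are the outer ends of gene spans, so a region over 1 kb from them can still cover an annotated start. The start regions of Cox5a and Cox7a2, 3656 and 4152 bp from the nearest gene end, are examples. So is the gained region near Ndufb10 (3065 bp), which covers the start of Rpl3l. Only 12 member regions lay over 5000 bp from any gene end, and 2 of those were higher.

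**Figure D4:**
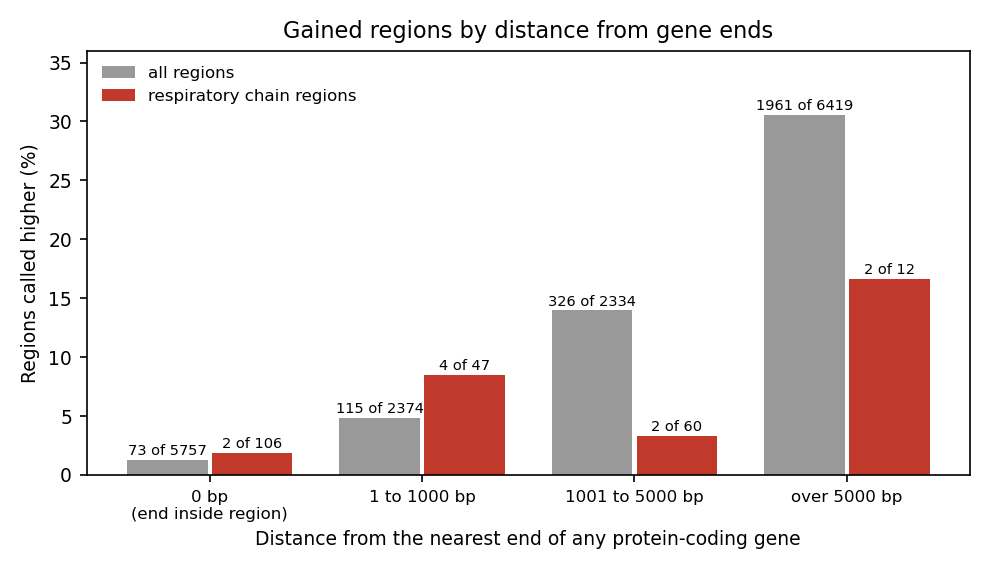
Percentage of regions called higher in NR4A2 hearts by distance from the nearest end of any protein-coding gene, for all regions (grey) and for respiratory chain regions (red), with counts above the bars. Ends are the outer ends of gene spans, so the farther classes also hold regions over annotated starts. In all regions the share rises from 1.27% where an end lies inside the region to 30.5% beyond 5000 bp, while the member shares are 1.89%, 8.51%, 3.33% and 16.7%, with no steady rise, and rest on 106, 47, 60 and 12 regions.

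**Figure D5:**
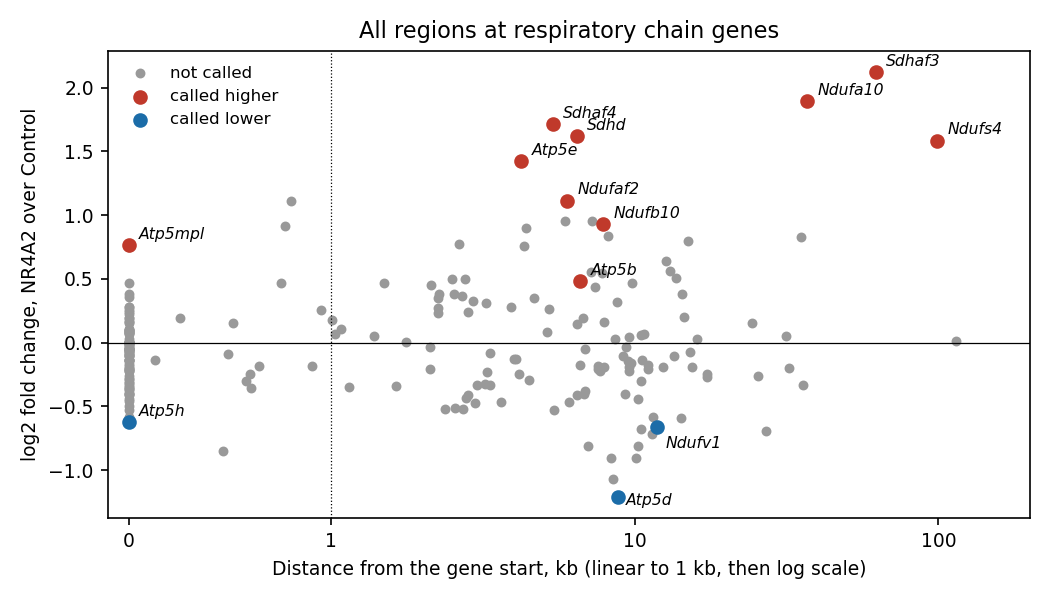
Log2 fold change (NR4A2 over Control) of each of the 225 member regions against its distance from the member's start in kb (from the nearer gene end where no strand is listed), with called regions coloured and named. Among the 10 called higher, 9 lie beyond 1 kb, and the largest values, at Sdhaf3 (2.12) and Ndufa10 (1.90), lie 62113 and 36881 bp from the start. The gained regions of Atp5b, Sdhaf4, Sdhd, Atp5e and Ndufs4 lie 0, 249, 628, 734 and 738 bp from the nearest end of a protein-coding gene.

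Complex II genes, whose enzyme succinate dehydrogenase also belongs to the citric acid cycle, had 3 gained regions. Sdhd encodes a membrane anchor subunit. Its gained region (chr9:50596968-50597404) lies inside the gene, 6445 bp from the start and 628 bp from the nearest gene end. The region is also within 10 kb of Timm8b and Nkapd1. CPM there were 30.7, 12.7 and 9.05 in Control hearts and 73.5, 44.1 and 36.6 in NR4A2 hearts. All NR4A2 hearts were higher, 17.5 ± 11.6 against 51.4 ± 19.5 CPM on average, and the log2 fold change was 1.62 ± 0.39 (SE), with an adjusted p of 0.00107. The start region of the same gene (chr9:50603471-50604194), shown above with its ERRE and ETS matches, had 98.6 ± 20.2 and 84.8 ± 11.9 CPM and was not called (-0.20, adjusted p = 0.582).

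Sdhaf3 encodes an assembly factor for the iron-sulfur subunit. A region 62113 bp from its start and inside the gene (chr6:7018131-7018416) had no other protein-coding gene within 10 kb. CPM there were 5.12, 4.87 and 10.9 in Control hearts and 29.6, 26.8 and 40.4 in NR4A2 hearts. This was the largest log2 fold change among the 225 member regions, 2.12 ± 0.50 (adjusted p = 0.000892), while the start region of Sdhaf3 had a value of -0.09 (adjusted p = 0.90). In Control mice 1, 2 and 3, 1 read was worth 1.02, 0.973 and 1.81 CPM. The Control values of the gained Sdhaf3 region thus rest on few reads. The regions of Sdhd and Sdhaf3 passed the test when any 1 heart was left out. Sdhaf4, which helps to mature the flavoprotein subunit, had a gained region 5367 bp outside the gene (chr1:24011007-24011296), which lies inside the neighbouring gene Fam135a. CPM were 9.22, 12.7 and 5.43 in Control hearts and 30.6, 20.5 and 45.4 in NR4A2 hearts, all higher (1.71 ± 0.48, adjusted p = 0.00562). Without NR4A2 mouse 3 its adjusted p was 0.0910.

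Complex I had 4 gained regions and 1 that fell. Ndufa10 encodes an accessory subunit. Its gained region (chr1:92436634-92436877) lies 2609 bp outside the gene, 36881 bp from the start, with no other protein-coding gene within 10 kb. CPM were 5.12, 6.81 and 5.43 in Control hearts and 18.1, 17.3 and 44.1 in NR4A2 hearts, with mouse 3 well above the others (1.90 ± 0.57, adjusted p = 0.0102, and 0.149 without NR4A2 mouse 3). Ndufs4 encodes an accessory subunit whose loss is used as a mouse model of Leigh syndrome. A region inside the gene (chr13:114288533-114288799) lies 99295 bp from the start and 738 bp from the nearest gene end. It had CPM of 8.20, 4.87 and 10.9 in Control hearts and 25.8, 20.5 and 29.0 in NR4A2 hearts. All NR4A2 hearts were higher (1.58 ± 0.52, adjusted p = 0.0204). The adjusted p was 0.0961 without NR4A2 mouse 3, 0.0752 without NR4A2 mouse 1 and 0.0875 without Control mouse 2. The start region of Ndufs4 had 60.3 and 58.5 CPM. At the gained regions of Ndufa10 and Ndufs4 the Control values also rest on few reads.

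Ndufaf2 encodes an assembly factor of complex I, and its gained region inside the gene (chr13:108151916-108152647) is 5978 bp from its start and also near Ercc8. CPM were 28.7, 43.8 and 25.3 in Control hearts and 39.1, 91.4 and 94.6 in NR4A2 hearts. NR4A2 mouse 1 lay below Control mouse 2, so the groups overlapped (1.11 ± 0.30, adjusted p = 0.00432, and 0.112 without NR4A2 mouse 3). Ndufb10, an accessory subunit of the membrane arm, was assigned a region 7871 bp outside the gene (chr17:24732294-24733078). It covers the start window of Rpl3l, a ribosomal protein gene of heart and skeletal muscle, shown above. CPM were 46.1, 32.1 and 39.8 in Control hearts and 50.6, 74.1 and 112 in NR4A2 hearts, all higher (0.93 ± 0.28, adjusted p = 0.0100). The adjusted p was 0.207 without NR4A2 mouse 3 and 0.0531 without Control mouse 2.

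Ndufv1 encodes the core subunit that binds NADH and flavin. The region that fell (chr19:4000188-4000893) lies 6606 bp outside this gene and covers the start of Nudt8, with Doc2g and Tbx10 nearby. CPM were 121, 123 and 116 in Control hearts and 94.5, 64.6 and 69.4 in NR4A2 hearts, all lower (-0.67 ± 0.21, adjusted p = 0.0164). The call ended without NR4A2 mouse 3 (adjusted p = 0.0818), without NR4A2 mouse 2 (0.0841) and without Control mouse 1 (0.0523) or 2 (0.0599).

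ATP synthase had 3 gained regions and 2 that fell. Atp5e encodes the epsilon subunit of the rotating stalk. A region 1198 bp outside the gene (chr2:174459114-174459877), shared with Prelid3b and Tubb1, had CPM of 13.3, 30.2 and 10.9 in Control hearts and 55.4, 47.3 and 36.6 in NR4A2 hearts. All NR4A2 hearts were higher (1.42 ± 0.38, adjusted p = 0.00358), and the highest adjusted p with 1 heart left out was 0.0490. Atp5mpl encodes a small membrane subunit. Its region (chr12:111966760-111967142) covers a gene end, and as no strand is listed for the gene it may or may not be the start. CPM were 43.0, 47.7 and 50.7 in Control hearts and 98.3, 69.4 and 76.9 in NR4A2 hearts, all higher (0.77 ± 0.25, adjusted p = 0.0220). The adjusted p was 0.156 without NR4A2 mouse 1, 0.0635 without NR4A2 mouse 3 and 0.0733 without Control mouse 1, so that no start region remained called higher then.

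The gained region of Atp5b (chr10:128089927-128091967) covers the far end of the gene, 6620 bp from the start, and is shared with Baz2a. CPM were 229.5, 227 and 145 in Control hearts and 253, 266 and 308 in NR4A2 hearts. All NR4A2 hearts were higher, by the smallest of the called gains (0.48 ± 0.17, adjusted p = 0.0334). It depended on Control mouse 3, the lowest of the 6: without it the log2 fold change was 0.27 and the adjusted p 0.313. The adjusted p was 0.199 without NR4A2 mouse 3 and 0.0583 without NR4A2 mouse 1.

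Atp5h encodes subunit d of the peripheral stalk. Its start region (chr11:115419636-115420419), shown above with an ETS match, also holds the start of Kctd2 207 bp away on the opposite strand and is within 10 kb of Mrpl58. CPM were 144, 144 and 148 in Control hearts and 89.8, 89.8 and 103 in NR4A2 hearts. The 3 NR4A2 hearts were all lower, 146 ± 2.42 against 94.3 ± 7.87 CPM, a log2 fold change of -0.62 ± 0.19 (adjusted p = 0.0146, and 0.0577 without NR4A2 mouse 1). Atp5d encodes the delta subunit of the rotating stalk. The region that fell (chr10:80151116-80151536) lies 5288 bp outside it, inside the neighbouring gene Midn. CPM were 46.1, 38 and 36.2 in Control hearts and 17.2, 29.9 and 8.83 in NR4A2 hearts, all lower (-1.21 ± 0.39, adjusted p = 0.0200). Its adjusted p was 0.190 without NR4A2 mouse 3 and 0.101 without Control mouse 1.

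Most member regions are shared with neighbours. Of the 225, 193 (85.8%) were also assigned to a gene outside the respiratory chain, and 0 to more than 1 member. At 20 members the start region held the start of another protein-coding gene, on the opposite strand at the 19 where both strands are listed. Examples are Sdhd with Timm8b (52 bp between starts), Sdha with Ccdc127 (77 bp), Ndufs3 with Kbtbd4 (19 bp) and Ndufa7 with Rps28 (10 bp). Which gene of such a pair a change belongs to was not tested. The strongest region assigned to any member lies 964 bp outside Atp5d (chr10:80146792-80149782), near Cbarp and Midn, at 463 CPM in Control and 379 CPM in NR4A2 hearts (-0.30 on the log2 scale, adjusted p = 0.181). At the edge of the 10 kb window, the outermost region inside was 9751 bp from Ndufv2 (59.4 and 55.9 CPM in Control and NR4A2 hearts), and the nearest outside was 10033 bp from Cox4i2 (12.4 and 10.5 CPM).

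The member regions together held 1.47% to 1.58% of each Control library's CPM and 1.47% to 1.48% of each NR4A2 library's. Their start regions held 0.837% to 0.865% in Control hearts and 0.772% to 0.827% in NR4A2 hearts. The start regions of all genes held 54.9% to 57.1% and 49.8% to 52.2%, so that both sets had a lower share in every NR4A2 library. These shares rest on the CPM scaling, and centring turned the median change of the member start regions from -0.06 to 0.11. By start motif, the median log2 fold change of start regions was -0.14 for 11 members with the NRF1 letters and -0.08 for 61 without, and -0.14 for 19 with the ETS letters and -0.07 for 53 without. It was 0.08 for 5 members with the CRE letters and -0.10 for 67 without, -0.17 for 10 with the YY1 letters and -0.08 for 62 without, and -0.10 for 8 with the core AAGGTCA and -0.08 for 64 without. For the 2 members with the ERRE letters the values were -0.40 (Atp5g3) and -0.20 (Sdhd). No test was run on these groups.

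Another 2 lists of genes outside the symbol rule were read beside the members. Of 54 matched assembly, coenzyme Q and biogenesis genes, 50 had a region, 10 had at least 1 that rose (20%, beside 14.2% of all genes with a region) and 3 had 1 that fell (6%, beside 6.25%). By region, 12 of 90 rose (13.3%, beside 14.7% of all regions) and 3 fell (3.33%, beside 3.17%), with a median log2 fold change of -0.10. Atpaf1, an assembly factor of the ATP synthase F1 part, had a region 3417 bp outside the gene with CPM of 30.7, 27.3 and 38 in Control hearts and 195, 216 and 174 in NR4A2 hearts (2.58 ± 0.23, adjusted p = 2.8e-15). Cox14, a complex IV assembly factor, had one 470 bp outside the gene that went from 104 ± 16.7 to 259 ± 5.66 CPM (1.32). Higd2a (2.37), Nubpl (1.89 and 1.55), Coa4 (1.45 and 0.76), Pet117 (1.56), Pdss2 (2.83), Surf1 (1.38), Coq7 (1.25) and Coq8a (1.03) were the others with regions that rose. Regions fell at Taco1 (-0.82), Coa5 (-0.71) and Sco2 (-0.65). The calls at Atpaf1, Cox14, Higd2a, Nubpl, Pet117 and Taco1 and the larger one at Coa4 held with any 1 heart left out. Without NR4A2 mouse 3 those at Pdss2 (adjusted p = 0.0520), Surf1 (0.0908), Coq7 (0.135), Coa5 (0.0719) and Sco2 (0.0531) and the smaller one at Coa4 (0.0909) ended. The highest adjusted p of Coa5 was 0.144 without Control mouse 3, and without NR4A2 mouse 2 it was 0.360 for Sco2 and 0.178 for Coq8a. Other settings ended more of these calls. Centring ended those at Coa5 (adjusted p = 0.139) and Sco2 (0.194), and DESeq2 those at Coa5 (0.0768), Sco2 (0.150), Coq7 (0.0615) and Coq8a (0.0783). The call at Sco2 also ended with edgeR (0.0617).

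Of 26 nuclear regulators of these genes, 22 had a region, 5 had at least 1 that rose (22.7%, beside 14.2% of all genes with a region) and 1 had 1 that fell. By region, 12 of 63 rose (19.0%, beside 14.7%) and 1 fell (1.59%, beside 3.17%), with a median log2 fold change of 0.05. Neither list was tested against other genes. The coactivator genes Ppargc1a (2 of 8 regions, up to 1.95), Ppargc1b (5 of 13, up to 1.93) and Perm1 (3 of 8, up to 1.07) had regions that rose. At the strongest of Perm1, chr4:156215460-156219123, CPM were 180.3, 191 and 177 in Control hearts and 353, 372 and 435 in NR4A2 hearts. Esrrb (2.37), an estrogen-related receptor, and Lrpprc (1.03), which stabilises mitochondrial mRNA, had 1 each. The largest call at each coactivator gene and that at Esrrb held with any 1 heart left out, as did 3 of the 5 at Ppargc1b. The other calls at these genes ended, with a highest adjusted p of 0.287 at Perm1 (without Control mouse 2 or 3), 0.0972 at Ppargc1a (without Control mouse 2) and 0.176 at Ppargc1b (without NR4A2 mouse 3). The call at Lrpprc ended without NR4A2 mouse 1 (adjusted p = 0.192) or 3 (0.282) and without Control mouse 1 (0.0691) or 3 (0.140). At Gabpb1, the partner subunit of GABP, the start region fell from 337 ± 82.2 to 239 ± 32.3 CPM (-0.47 ± 0.16, adjusted p = 0.0306), a call that ended without Control mouse 3 (adjusted p = 0.277), NR4A2 mouse 1 (0.149) or NR4A2 mouse 2 (0.0917). It also ended with centring (adjusted p = 0.227), with DESeq2 (0.0703), with limma without its trend and robust options (0.317) and among regions of at least median signal (0.0830). DESeq2 ended the call at Lrpprc (0.0735), both smaller calls at Perm1 (0.0869 and 0.172) and 1 call at Ppargc1b (0.0525).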

How the data were processed

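ChIP-seq values for 6 hearts (3 Control, 3 NR4A2) were taken from 1 table of 16884 regions. The authors deposited CPM per mouse, with their own log2 fold change, p-value and FDR per region, per the file headers. Per the submitters' processing notes, BWA and GRCm38 (mm10) were used. Not given in the sources used here are the peak caller, the merging of regions, the counter and any use of the fly spike-in. Every deposited CPM value was a whole multiple of 1 read (100% within a tolerance of 0.001 read), and columns summed to 989059 to 1009112. Column names identified the mice, with 0 columns unmatched.

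Differences were tested with limma 3.58.1 (R 4.3.3, trend and robust moderation) on log2(CPM + 1) over all regions, without a filter, and p-values were adjusted by Benjamini-Hochberg over all of them. Log2 fold changes are on that scale, which understates changes of weak regions. Mice are the replicates. Regions are not independent replicates. The spread between these mice is all the p-values measure. On simulated reads for this comparison, over 16884 regions, limma called 41% of 100 regions with a true log2 change of 1 and 79% of 100 with one of 2, and made 4 false calls. Only these regions changed in the simulation, as many up as down, whereas 2475 were called higher and 536 lower in the data. These rates need not hold for the data. edgeR 4.0.16 and DESeq2 1.42.0 on the recovered reads, other scalings, pseudocounts of 0.5 and 5, a signal filter, a mouse-number block, other windows and leaving out each mouse were the alternatives.

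Regions were placed on RefSeq GRCm38.p6 gene spans and, where listed, starts. Exons were not used here. Genes were named by rule: every member with a called region, the 10 strongest start regions, isoform genes of complex IV and ATP synthase, the largest start change per complex among start regions of at least median signal, members with no region, and genes of 2 further lists with a called region. Other genes were chosen after their values were seen. Members and lists were chosen with earlier results of these data known. The values of 1 member are not reported here.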

Additional observations from a re-analysis of the deposited data

How the results depend on the processing

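The count of 10 member regions that were higher was 9 with edgeR, 9 with DESeq2, 13 with libraries centred on regions near gene ends, 3 among regions of at least median signal, 6 with limma without trend and robust options and 2 with recovered reads not scaled for depth. It was 6 with gene spans not extended, 6 with spans extended by 1 kb, and 3 to 10 with 1 mouse left out. The count of 3 that were lower was 1 with DESeq2, 0 with centring, 0 without scaling, 1 with spans not extended, 1 with spans extended by 1 kb, and 1 to 3 with 1 mouse left out. The higher start region (1) was 0 without scaling and 0 without the limma options, and 0 to 1 with 1 mouse left out. The lower start region (1) was 0 with centring, 0 without scaling and 0 without the limma options, and 0 to 1 with 1 mouse left out. The alternatives for start regions and for the further gene lists were chosen after seeing the data. The cause of these shifts was not tested, apart from the smaller sets that the filter and the windows test.

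No named member region that was called changed direction under any alternative run. The calls at Sdhd and Sdhaf3 held under all 14 alternatives run for them. Among member regions, centring ended the calls at Atp5h, Ndufv1 and Atp5d, edgeR that at Atp5b (adjusted p = 0.0684), and DESeq2 those at Atp5b (0.140), Atp5d (0.0630) and Ndufv1 (0.0551). Limma without its options ended those at Atp5b, Atp5d, Atp5h, Atp5mpl, Ndufb10, Ndufaf2 and Ndufv1, and reads without scaling all but Sdhd and Sdhaf3. Over all regions, calls higher and lower numbered 2475 and 536 as reported, 2881 and 132 with centring, 2177 and 251 with DESeq2, 1398 and 14 without scaling, 481 and 235 among the 8442 regions of at least median signal, and 2237 and 132 without the limma options. Mouse numbers did not pair the samples (correlations of deviations -0.07, 0.06 and 0.03). With the replicate block, 10 member regions were higher and 3 lower, and 2540 and 580 of all regions. With 20 to 40 reads in the median region per library, small changes in weak regions could not be resolved.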
